A study of Homo sapiens with 12 samples.

Results

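The acute-phase plasma protein and IL6 signalling genes examined here were HP, HPX, ORM1, ORM2, SAA1, SAA2, SAA4, SOCS3, STAT3 and IL6R. They were chosen by symbol as the rows of the deposited count table with these names, 10 of 26485 genes. All 10 had at least 1 read, and 8 passed the filter on low counts. SAA1 and SAA2 did not. The assay was bulk RNA sequencing of HepG2, a human hepatoma cell line whose cells make and secrete plasma proteins of the liver. There were 4 stable lines of 3 wells each, a to c, or 12 libraries. Z2, Z5 and Z9 had received CRISPR vectors labelled sgZHX3-2, sgZHX3-5 and sgZHX3-9, and their genotype is labelled ZHX3-depleted. The line Empty had received a vector without a guide, and its genotype is labelled WT. All lines were transfected with lipofectamine 2000, selected with blasticidin and grown in low-glucose DMEM with serum, and the protocols name no cytokine treatment. Whether a line is 1 clone or a mixture is not given in the sources used here. Wells are the replicates (n = 3 per line), so a p-value weighs a difference against well-to-well variation, which may be technical, and because Empty is the sole control line, what the guides did and how that line came about cannot be told apart. The 3 comparisons with Empty share its wells.

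The acute-phase response is the change in liver plasma protein output that follows infection or injury. IL6 binds its receptor IL6R and the shared signalling chain gp130, JAK kinases are activated, and the transcription factor STAT3 enters the nucleus. STAT3, with C/EBP and NF-kB factors, induces acute-phase genes in hepatocytes. SOCS3, itself a STAT3 target, binds gp130 and JAK and shuts the signal off. HepG2 cells are a common model of this pathway.

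Library totals ranged from 50864744 to 65428204 counts. Within a line no library repeated another, since its wells gave a chi-square of 6.01 to 43 per degree of freedom. The highest values were those of Z2 b, at 43 against Z2 a and 30.2 against Z2 c. Libraries of different lines were not compared in this way. ZHX3 mRNA was 34.5 ± 0.62 CPM (counts relative to the scaled library size) in Z2, 32.9 ± 0.505 in Z5 and 34.3 ± 0.713 in Z9, against 33 ± 0.421 in Empty (SD, n = 3 wells each), and did not pass the test in any line (edgeR adjusted p = 0.402, 0.972 and 0.49). Edits of a few bases and the amount of ZHX3 protein are not seen in such counts, so the lines are called by their labels. All 7 hepatocyte markers had at least 10 counts in every well. Their summed level was 38300 to 41400 CPM in the wells of Z2, Z5 and Z9 and 44200 to 45200 CPM in Empty, and the part of that difference in the results below was not tested. Of the 7, ALB averaged 11500 CPM in Z2, 11500 in Z5 and 12000 in Z9, against 17500 in Empty, while SERPINA1 averaged 10900, 10700 and 10100 CPM in Z2, Z5 and Z9, against 8730 in Empty, and TF 7880, 8380 and 7980, against 7730 in Empty, so the lower sum was carried by ALB. Of 6 macrophage and leukocyte markers, 2, CD68 and LYZ, had at least 10 counts in every well, while PTPRC, the pan-leukocyte marker, had 3 counts over the 12 libraries and MARCO had 0. The summed level of these 6 markers was 1910 to 2100 CPM in Z2, 2030 to 2160 in Z5, 1590 to 1750 in Z9 and 1820 to 2000 in Empty.

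The promoter windows of HPX and SOCS3 are shown because these genes changed in every line and had a window in the RefSeq set (GRCh38.p14, 250 bases before to 50 after a transcript start). Of the 10 genes, 6 had a window. Capitals mark matches to 4 motifs searched on both strands, the STAT half-site pair TTCNNNGAA, the C/EBP motif TTGCNNAA, an NF-kB motif and CTGGGAA, a core of IL6 response elements.
HPX, chr11:6440938-6441237, minus strand: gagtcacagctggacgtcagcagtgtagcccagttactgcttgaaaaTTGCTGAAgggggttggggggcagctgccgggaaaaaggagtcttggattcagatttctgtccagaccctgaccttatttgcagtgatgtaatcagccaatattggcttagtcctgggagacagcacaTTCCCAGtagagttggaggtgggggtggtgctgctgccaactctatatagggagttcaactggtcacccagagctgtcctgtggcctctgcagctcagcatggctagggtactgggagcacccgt
SOCS3, chr17:78359618-78359917, minus strand: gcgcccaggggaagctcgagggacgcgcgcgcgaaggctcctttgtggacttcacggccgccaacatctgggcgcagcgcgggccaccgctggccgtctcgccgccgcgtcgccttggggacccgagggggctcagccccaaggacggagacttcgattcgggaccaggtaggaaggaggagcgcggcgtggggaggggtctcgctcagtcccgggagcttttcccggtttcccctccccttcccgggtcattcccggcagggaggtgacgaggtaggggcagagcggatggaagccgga
The HPX window held 1 C/EBP match, TTGCTGAA, and 1 CTGGGAA match, read as TTCCCAG on the strand shown, which did not overlap. The SOCS3 window held none of the 4 motifs, and it lies inside the annotated span of the gene, so other starts of SOCS3 are not covered. SAA4 had 3 C/EBP matches, and IL6R, ORM1 and STAT3 had none. Of 35116 windows of the same length in the set, 7.66% held TTCNNNGAA, 10.5% TTGCNNAA, 5.68% the NF-kB motif and 10.8% CTGGGAA. A match is a description of the letters and not a bound site.

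Haptoglobin mRNA was higher and hemopexin mRNA lower in all 3 labelled lines. Haptoglobin, the product of HP, is an acute-phase protein that binds free haemoglobin in plasma. HP was at 75.8, 86.8 and 73.4 CPM in wells a, b and c of Z2, 73.8, 69.2 and 71 in Z5 and 63.1, 68.2 and 77.5 in Z9, against 51.2, 45.2 and 44.4 in Empty. All 9 labelled wells lay above the 3 Empty wells. The change was 1.68-fold in Z2, 1.52-fold in Z5 and 1.48-fold in Z9 (log2 0.75, 0.60 and 0.57, SE 0.078 each, edgeR adjusted p = 4.54e-06, 5.43e-05 and 7.76e-05). In bulk RNA, a smaller or larger share of expressing cells and a change of RNA per cell cannot be told apart.

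HPX encodes hemopexin, which binds free haem and carries it to the liver. Its mRNA was at 10.9, 6.97 and 8.13 CPM in wells a, b and c of Z2, 12.1, 10 and 10.1 in Z5 and 14, 11.2 and 11.1 in Z9, against 21.2, 17.1 and 18.7 in Empty. The highest labelled well was below the lowest Empty well, and the order of line means was Z2, Z5, Z9 and Empty, from low to high. HPX fell to 0.456 of the Empty level in Z2, 0.565 in Z5 and 0.637 in Z9 (log2 -1.13 ± 0.14, -0.82 ± 0.14 and -0.65 ± 0.14, SE, edgeR adjusted p = 6.75e-05, 0.00121 and 0.00458). Across the mean of the 3 lines the log2 change was -0.87 ± 0.11 for HPX and 0.64 ± 0.066 for HP (edgeR adjusted p = 4.79e-05 and 2.43e-06).

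**Figure D1:**
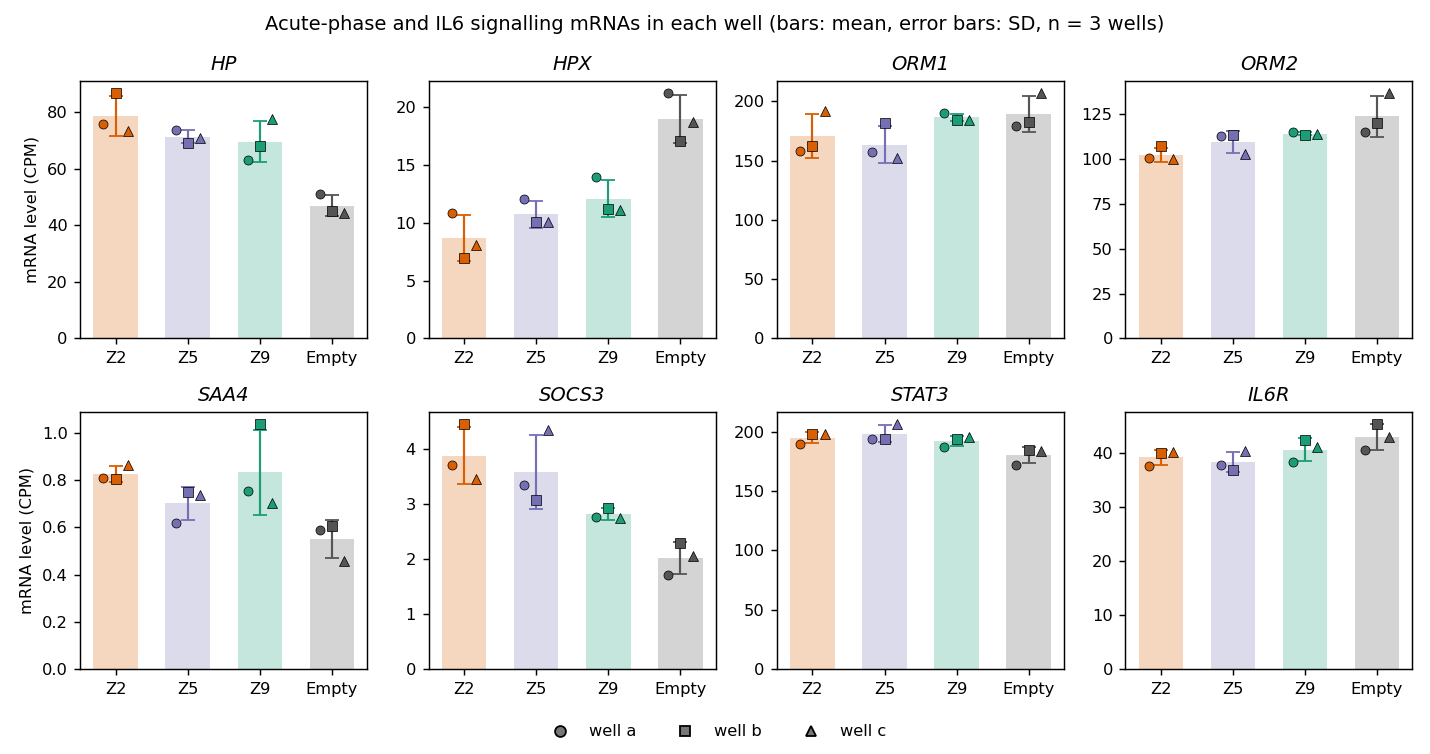
mRNA level in CPM (vertical axis, from 0) of the 8 tested genes in each well of Z2, Z5, Z9 and Empty; bars are means, error bars SD and symbols the wells a to c (n = 3). HP lay between 63.1 and 86.8 CPM in the 9 labelled wells and at or below 51.2 CPM in Empty, and HPX between 6.97 and 14 CPM in the labelled wells and at or above 17.1 CPM in Empty.

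HP lies on chromosome 16 (72054505 to 72061055, RefSeq, GRCh38.p14), 2170 bases from HPR, which encodes haptoglobin-related protein. In the longest coding transcripts of GENCODE release 29, 28.6% of the 50-base windows of HP occur unchanged in HPR and 33.9% of those of HPR in HP, so reads there could be assigned to either gene. HPR was at 13.6 ± 1.1 CPM in Z2, 13 ± 0.936 in Z5 and 11.1 ± 0.991 in Z9, against 9.5 ± 0.997 in Empty (SD, n = 3 wells each). It rose in Z2 and Z5 (log2 0.52 and 0.45, edgeR adjusted p = 0.00105 and 0.00454) and did not pass in Z9 (0.22, edgeR adjusted p = 0.125). HP took 83.8% to 86% of the counts of the pair in Z2, 83.4% to 86.1% in Z5 and 86.1% to 86.5% in Z9, against 81.5% to 84.4% in Empty. With both genes summed into 1 row, the change was 0.71 in Z2, 0.58 in Z5 and 0.52 in Z9 on the log2 scale (edgeR adjusted p = 3.71e-06, 4.06e-05 and 0.000108), an alternative chosen after seeing the data.

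Genes of haemoglobin and haem handling were set beside HP and HPX. Of 5 tested, 1 passed in the mean of the 3 lines, and it rose, where 13.0% of all genes were called higher, and the list's median log2 change was 0.026. LRP1, the receptor for hemopexin with bound haem, was at 653 ± 33.9 CPM in Z2, 661 ± 32.8 in Z5 and 672 ± 29.4 in Z9, against 536 ± 21.9 in Empty (SD, n = 3 wells each), and rose (log2 0.30 ± 0.048, SE, edgeR adjusted p = 1.89e-04). HMOX1, the inducible haem oxygenase, had a log2 change of 0.23 in the mean and did not pass (edgeR adjusted p = 0.0517). It rose in Z2 (0.31, edgeR adjusted p = 0.0348) and Z5 (0.41, edgeR adjusted p = 0.0133) and had a log2 change of -0.026 in Z9 (edgeR adjusted p = 0.888). By DESeq2 2 genes of this list were called higher in the mean. CD163, the macrophage receptor for haptoglobin with haemoglobin, had 18 counts over all 12 libraries and was not tested.

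The 2 genes of alpha-1-acid glycoprotein, also called orosomucoid, had the highest levels per transcript length and moved little. ORM1 was at 158, 163 and 192 CPM in wells a, b and c of Z2, 157, 182 and 152 in Z5 and 190, 185 and 184 in Z9, against 179, 182 and 207 in Empty. Every labelled line overlapped Empty, and ORM1 did not pass in any (log2 -0.15, -0.21 and -0.023 in Z2, Z5 and Z9, edgeR adjusted p = 0.189, 0.0842 and 0.874). Without Z2 c, ORM1 passed in Z2 (-0.24, edgeR adjusted p = 0.0389), in Z5 (-0.22, edgeR adjusted p = 0.0441) and in the mean of the 3 lines (-0.16, edgeR adjusted p = 0.0494), and without Z5 b it passed in Z5 (-0.29, edgeR adjusted p = 0.0374). ORM2 was at 100, 107 and 100 CPM in wells a, b and c of Z2, 113, 113 and 103 in Z5 and 115, 114 and 114 in Z9, against 115, 120 and 137 in Empty. The wells of Z2 and Z5 lay below Empty, and those of Z9 overlapped it. ORM2 fell in Z2 (log2 -0.27 ± 0.062, SE, edgeR adjusted p = 0.00421) and did not pass in Z5 or Z9 (-0.18 and -0.12, edgeR adjusted p = 0.0615 and 0.189). In Z5 it passed without Empty a (-0.23, edgeR adjusted p = 0.0442), without Z2 b (-0.18, edgeR adjusted p = 0.0288), with no filter beyond 1 count (edgeR adjusted p = 0.0498) and by DESeq2 (adjusted p = 0.043), and it was -0.11 without Empty c. In the mean of the 3 lines it fell (-0.19 ± 0.05, SE, edgeR adjusted p = 0.00951), but without Empty c the change was -0.12 and did not pass (edgeR adjusted p = 0.112).

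ORM1 (114323098 to 114326479) and ORM2 (114329869 to 114333251) are neighbours on chromosome 9, 3389 bases apart. Their transcripts share 47.4% of the 50-base windows of ORM1 and 50.2% of those of ORM2, so their separate counts are uncertain. ORM1 took 60.3% to 65.7% of the pair's counts in Z2, 58.2% to 61.6% in Z5 and 61.8% to 62.3% in Z9, against 60.2% to 60.9% in Empty. The highest share was that of Z2 c, at 65.7% (exact 95% binomial interval 65% to 66.5%, counting error only), above the interval of every other well. Summed over both genes, the level was 258.5 to 292.5 CPM in the wells of Z2, 254.7 to 295.1 in Z5 and 298.1 to 305.4 in Z9, against 294.1 to 343.7 in Empty. The sum had a log2 change of -0.20 in Z2 (edgeR adjusted p = 0.0424), -0.20 in Z5 (0.0564, edgeR) and -0.06 in Z9 (0.577, edgeR).

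**Figure D2:**
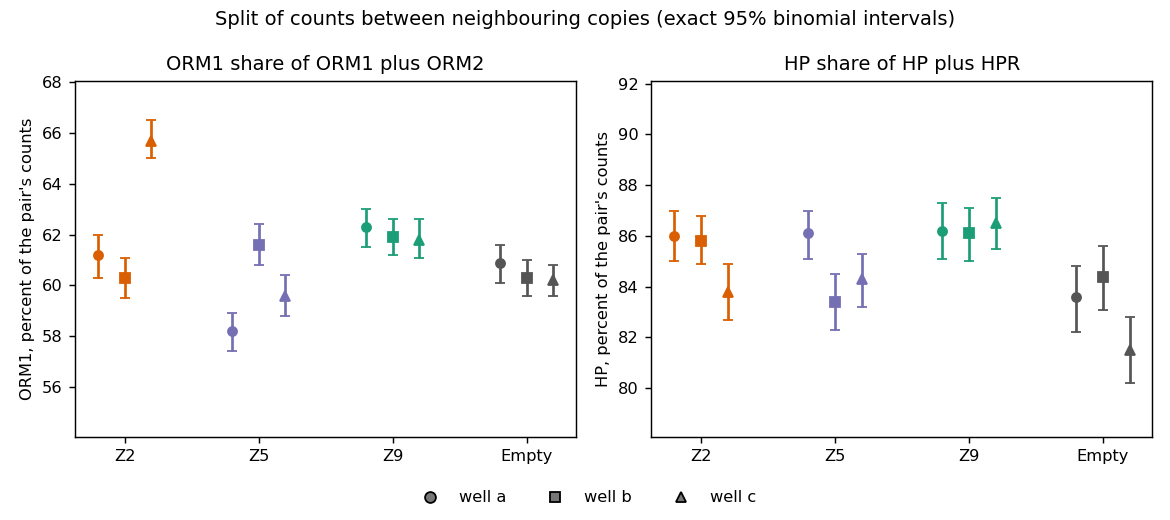
Share of a neighbouring pair's counts (vertical axis, percent, not starting at 0) taken by ORM1 (left) and HP (right) in each well of Z2, Z5, Z9 and Empty; vertical lines are exact 95% binomial intervals, which cover counting error only. ORM1 in Z2 c stands at 65.7%, above the 58.2% to 62.3% of the other 11 wells, and HP stays between 81.5% and 86.5%.

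SAA1 and SAA2 were near the limit of detection, and SAA4 was low but counted in every well. SAA1 and SAA2 encode the apolipoproteins that rise most strongly in plasma in the acute phase, and SAA4 encodes a form made at steady level. SAA1 had 0 counts in every well except Z9 a, which had 3. SAA2 had 3 counts over the wells of Z2, 3 in Z5, 1 in Z9 and 0 in Empty. A count of 0 allows up to 3 counts, or 0.046 to 0.0589 CPM depending on the library, so no fold is given for either gene. SAA4 was at 0.808, 0.807 and 0.865 CPM in wells a, b and c of Z2, 0.62, 0.748 and 0.736 in Z5 and 0.756, 1.04 and 0.705 in Z9, against 0.589, 0.607 and 0.46 in Empty, from 30 to 60 counts a well. All 9 labelled wells lay above the Empty wells, by as little as 0.62 against 0.607 CPM. SAA4 did not pass in any line (log2 0.59 ± 0.23 in Z2, 0.35 ± 0.23 in Z5 and 0.60 ± 0.23 in Z9, SE, edgeR adjusted p = 0.0721, 0.344 and 0.0742). The 95% interval of its mean change ran from 1.08-fold to 1.89-fold (edgeR adjusted p = 0.0583). The 3 genes lie within chromosome 11 from 18231355 to 18269967, and SAA1 shared 21.9% of its 50-base transcript windows with SAA2 and 0% with SAA4.

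SOCS3, the feedback inhibitor, was higher in all labelled wells. It was at 3.72, 4.46 and 3.46 CPM in wells a, b and c of Z2, 3.36, 3.07 and 4.35 in Z5 and 2.77, 2.94 and 2.75 in Z9, against 1.71, 2.29 and 2.05 in Empty, from 87 to 248 counts a well. The lowest labelled well, Z9 c at 2.75 CPM, lay above the highest Empty well at 2.29. SOCS3 rose 1.92-fold in Z2, 1.78-fold in Z5 and 1.39-fold in Z9 (log2 0.94, 0.83 and 0.48, SE 0.16 each, edgeR adjusted p = 3.58e-04, 0.00153 and 0.0423). The Z9 call did not hold when Empty a, Empty c or any 1 well of Z9 was left out (log2 0.38 and edgeR adjusted p = 0.174 without Empty a, and 0.0783 to 0.127 without Empty c or a Z9 well). In the mean of the 3 lines the log2 change was 0.75 ± 0.13 (SE, edgeR adjusted p = 4.76e-04).

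STAT3 and IL6R moved by less than SOCS3. STAT3 was at 190, 198 and 198 CPM in wells a, b and c of Z2, 194, 194 and 206 in Z5 and 187, 194 and 196 in Z9, against 172, 185 and 184 in Empty. The labelled wells lay above Empty, by as little as 187 against 185 CPM. STAT3 did not pass in a single line (log2 0.11 in Z2, 0.14 in Z5 and 0.091 in Z9, each with an SE of 0.049, edgeR adjusted p = 0.106, 0.0744 and 0.212). In Z5 it passed without Z2 b (edgeR adjusted p = 0.0322), in a fit of only Z5 and Empty (edgeR adjusted p = 0.0374) and by DESeq2 (adjusted p = 0.0446). It was called in the mean of the 3 lines (0.11 ± 0.041, SE, edgeR adjusted p = 0.0488), and the call was lost without any 1 of 9 libraries, for example at 0.295 without Empty a (edgeR adjusted p). IL6R was at 37.5, 39.9 and 40.1 CPM in wells a, b and c of Z2, 37.8, 36.8 and 40.5 in Z5 and 38.3, 42.5 and 41 in Z9, against 40.5, 45.4 and 42.9 in Empty. The wells of Z2 and Z5 lay below Empty, and those of Z9 overlapped it. IL6R did not pass (mean log2 change -0.12 ± 0.049, SE, 95% interval 0.854-fold to 0.985-fold, edgeR adjusted p = 0.0708). Without Z2 b it passed in the mean (-0.13, edgeR adjusted p = 0.0402) and in Z5 (-0.16, edgeR adjusted p = 0.045), and in Z5 also in a fit of only Z5 and Empty (edgeR adjusted p = 0.0455).

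**Figure D3:**
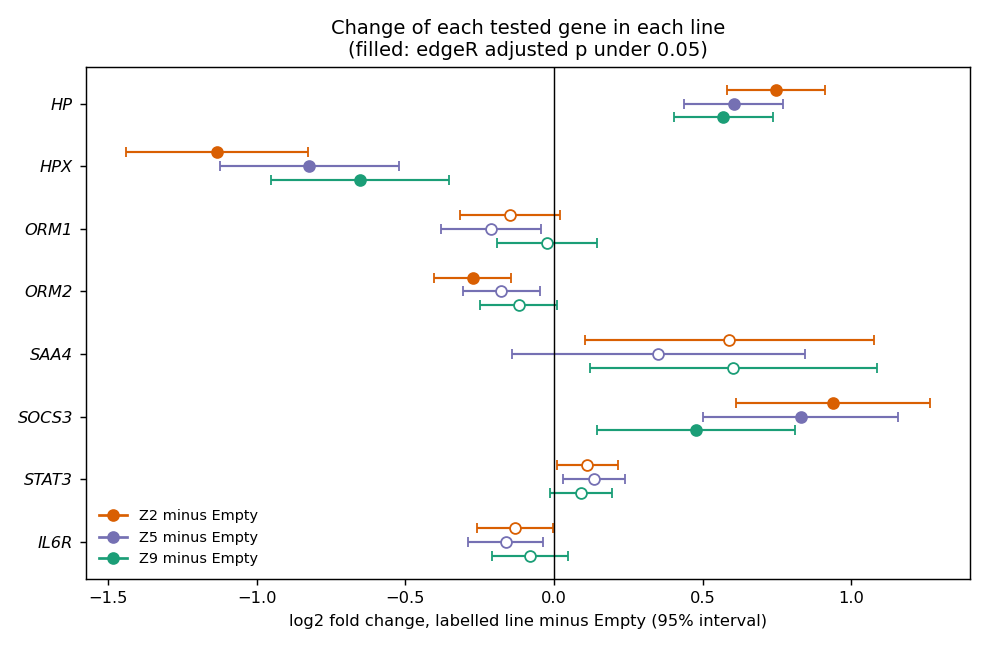
Log2 fold change of each labelled line minus Empty (horizontal axis) for the 8 tested genes, with 95% intervals; filled points passed edgeR's adjusted p of 0.05. The 3 lines share the Empty wells; HP and SOCS3 lie right of 0 and HPX left of 0 in each line, and ORM2 is filled only in Z2.

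In all, 2 of the 8 tested genes rose and 2 fell in Z2, where edgeR called 23.9% of all 15289 genes tested (12.4% higher, 11.5% lower). In Z5 2 rose and 1 fell, with 15.0% of all genes called (8.27% higher, 6.68% lower), and in Z9 2 rose and 1 fell, with 19.2% called (9.66% higher, 9.58% lower). In the mean of the 3 lines 3 rose and 2 fell, with 25.6% called (13.0% higher, 12.6% lower), and the median log2 change of the 8 genes was -0.006, against 0.003 over all genes tested. Without Empty c the count was 3, since STAT3 and ORM2 did not pass. Without Z2 b, 6 genes were called in Z5, where ORM2, STAT3 and IL6R joined HP, HPX and SOCS3. The calls over all genes in Z5 were then 3267, against 2286 with every library.

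The labelled lines were also compared with each other. Of the 8 genes, 0 passed between Z5 and Z2 (edgeR, 0 at an unadjusted p under 0.05, 0 by DESeq2), where 0.00654% of all genes were called. Between Z9 and Z2, edgeR called 790 of all genes, or 5.17% (1.96% higher, 3.21% lower), and DESeq2 called 1526. Of the 8 genes, 0 passed there by edgeR, 4 had an unadjusted p under 0.05 and 2 passed by DESeq2. Those 2 were HPX, at a log2 difference of 0.48 (95% interval 1.13-fold to 1.73-fold, edgeR adjusted p = 0.0677, DESeq2 0.0129), and SOCS3, at -0.46 (0.583-fold to 0.905-fold, edgeR adjusted p = 0.0777, DESeq2 0.04). Without Z2 a, HPX passed between Z9 and Z2 (0.68, edgeR adjusted p = 0.00376). It also passed there with a block for the well letter (0.49, edgeR adjusted p = 0.00209), and well a had the highest HPX level in every line. Between Z9 and Z5, where edgeR called 1.52% of all genes (0.432% higher, 1.09% lower), 0 passed (edgeR, 2 at an unadjusted p under 0.05, 0 by DESeq2). Over all genes DESeq2 called 504 there, against 232 by edgeR.

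Levels of different genes were compared per kilobase of the longest coding transcript of GENCODE release 29. In Empty the level was 236 ± 19 CPM per kilobase for ORM1, 163 ± 14.9 for ORM2, 35.7 ± 1.39 for STAT3, 31.6 ± 2.5 for HP, 11.5 ± 1.26 for HPX, 7.25 ± 0.411 for IL6R, 0.759 ± 0.11 for SAA4 and 0.739 ± 0.107 for SOCS3 (SD, n = 3 wells). SAA4 and SOCS3 did not differ beyond their spread on this scale. HP lay above STAT3 in the labelled lines, at 53.1 ± 4.81 against 38.6 ± 0.904 in Z2, 48.1 ± 1.56 against 39.2 ± 1.41 in Z5 and 47 ± 4.91 against 38 ± 0.888 in Z9 (CPM per kilobase, SD, n = 3 wells each). HPX was at 5.24 ± 1.21 in Z2, below IL6R at 6.63 ± 0.242 there.

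Other genes of the response were then described by role, from lists chosen with earlier results of these data known. IL6, IL6ST, JAK1, SOCS1, CEBPB, CEBPD, HMOX1 and CD163 are given with their values although they are outside the rule for naming genes. Counts of each list are of the mean of the 3 lines minus Empty unless a line is named. The inducing cytokines were low or mixed. IL6 had 0 counts in all 12 libraries. Of 5 tested ligands, 2 rose and 1 fell, against 13.0% higher and 12.6% lower over all genes, with a median log2 change of 0.31. IL11, an IL6-family cytokine, was at 52.5 ± 3.35 CPM in Z2, 49.2 ± 3.95 in Z5 and 46.7 ± 9.32 in Z9, against 34.3 ± 6.76 in Empty (SD, n = 3 wells each), and rose (log2 0.53, edgeR adjusted p = 0.0145). CTF1, cardiotrophin-1, rose (0.56, edgeR adjusted p = 0.0149), and LIF, leukaemia inhibitory factor, fell (-0.31, edgeR adjusted p = 4.89e-04). Without Empty a neither IL11 (0.41, edgeR adjusted p = 0.0758) nor CTF1 (0.42, edgeR adjusted p = 0.122) passed, and without Empty c IL11 did not (0.49, edgeR adjusted p = 0.0608).

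Among receptors, 3 of 7 tested rose and 1 fell, against 13.0% higher and 12.6% lower over all genes, with a median log2 change of 0.097. LIFR, which pairs with gp130 for LIF, rose (0.26, edgeR adjusted p = 0.00183), as did OSMR, the oncostatin M receptor (0.18, edgeR adjusted p = 0.0105), and IL1R1, the IL1 receptor (0.26, edgeR adjusted p = 0.00319). In single lines OSMR passed only in Z2 (0.34, edgeR adjusted p = 0.000511), while Z5 had 0.16 and Z9 0.045 (edgeR adjusted p = 0.0784 and 0.644), and IL1R1 did not pass in Z9 (0.1, edgeR adjusted p = 0.339). IL1RAP, the accessory chain of the IL1 receptor, fell (-0.32, edgeR adjusted p = 3.53e-04). IL6ST, which encodes gp130, was at 342 ± 24.8 CPM in Z2, 341 ± 2.42 in Z5 and 311 ± 11.4 in Z9, against 311 ± 8.51 in Empty (SD, n = 3 wells each), and did not pass (0.09, edgeR adjusted p = 0.16). OSMR did not pass without Empty a (0.14, edgeR adjusted p = 0.109) or Empty b (0.18, edgeR adjusted p = 0.0531).

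Of 6 tested kinases and other STATs, 1 rose and 1 fell, against 13.0% higher and 12.6% lower over all genes, with a median log2 change of 0.07. STAT5A, a STAT used by growth hormone and cytokine receptors, was at 5.66 ± 0.641 CPM in Z2, 5.82 ± 0.721 in Z5 and 5.81 ± 0.673 in Z9, against 3.55 ± 0.638 in Empty (SD, n = 3 wells each), and rose (0.70 ± 0.12, SE, edgeR adjusted p = 3.31e-04). The kinase TYK2 fell (-0.20, edgeR adjusted p = 0.00918), but not without Empty a (-0.19, edgeR adjusted p = 0.058) or Empty b (-0.18, edgeR adjusted p = 0.0544). By line TYK2 did not pass in Z9 (-0.115, edgeR adjusted p = 0.223). JAK1 did not pass (0.017, edgeR adjusted p = 0.873). Of 13 other inhibitors of JAK-STAT signalling, 1 passed, and it fell, against 25.6% of all genes called, with a list median of 0.002. That gene was PTPN11, which encodes the phosphatase SHP2 (-0.19, edgeR adjusted p = 0.00184). SOCS1, the nearest relative in function of SOCS3, did not pass (-0.077, edgeR adjusted p = 0.604).

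Of 11 immediate STAT3 targets other than SOCS3, 3 rose and 1 fell, against 13.0% higher and 12.6% lower over all genes, with a median log2 change of -0.002. PIM1, a survival kinase, was at 169 ± 21.7 CPM in Z2, 178 ± 22.5 in Z5 and 168 ± 16.1 in Z9, against 93.3 ± 11.9 in Empty (SD, n = 3 wells each), and rose (0.88 ± 0.10, SE, edgeR adjusted p = 8.47e-05). TIMP1, a metalloprotease inhibitor, rose (0.40, edgeR adjusted p = 0.0135), as did the interferon factor IRF9 (0.20, edgeR adjusted p = 0.0191), and BCL3, an NF-kB cofactor, fell (-0.28, edgeR adjusted p = 0.00143). In single lines TIMP1 and IRF9 passed only in Z2 (0.52 and 0.24, edgeR adjusted p = 0.0103 and 0.0214), and BCL3 did not pass in Z9 (-0.13, edgeR adjusted p = 0.206). Without Empty a 1 gene of this list was called higher, since TIMP1 (0.35, edgeR adjusted p = 0.0871) and IRF9 (0.20, edgeR adjusted p = 0.0874) did not pass, and IRF9 did not pass without Empty b (0.18, edgeR adjusted p = 0.102).

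Among 8 tested transcription factors of hepatocyte and acute-phase genes, 3 passed, and all of these fell, against 12.6% of all genes called lower, with a median log2 change of -0.015. CEBPA, which drives liver genes at rest, was at 64.2 ± 16.5 CPM in Z2, 81.8 ± 7.49 in Z5 and 83.4 ± 3.04 in Z9, against 115 ± 8.29 in Empty (SD, n = 3 wells each), and fell (-0.59 ± 0.12, SE, edgeR adjusted p = 0.00574). FOXA1, a liver pioneer factor, also fell (-0.24, edgeR adjusted p = 0.00237). In single lines 3 genes of this list were lower in Z2, 1 in Z5 and 0 in Z9, where 11.5%, 6.68% and 9.58% of all genes were called lower. CEBPA passed only in Z2 (-0.83, edgeR adjusted p = 0.00396), while Z5 had -0.48 and Z9 -0.46 (edgeR adjusted p = 0.0634 and 0.0663), and FOXA1 passed only in Z2 (-0.36, edgeR adjusted p = 0.000621). The inducible members CEBPB (0.20, edgeR adjusted p = 0.196) and CEBPD (0.14, edgeR adjusted p = 0.0652) did not pass in the mean of the 3 lines. CEBPD was called in Z2 and Z5 (log2 0.29 and 0.26, edgeR adjusted p = 0.00507 and 0.0148) and not in Z9 (-0.12, edgeR adjusted p = 0.242), and it was lower in Z9 than in Z2 (-0.41, edgeR adjusted p = 0.00584).

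Positive acute-phase proteins are those whose plasma level rises in the response. Of 18 other tested genes listed as such, 11 rose and 2 fell, against 13.0% higher and 12.6% lower over all genes. Their median log2 change was 0.27. HPR was among the 11, and its counts may include reads of HP. In the single lines 10 rose in Z2, 10 in Z5 and 8 in Z9, where 12.4%, 8.27% and 9.66% of all genes were called higher, with 1 lower in each. SERPINA3, antichymotrypsin, was at 1340 ± 107 CPM in Z2, 1190 ± 63.5 in Z5 and 1140 ± 32.6 in Z9, against 722 ± 89.9 in Empty (SD, n = 3 wells each), and rose (0.76 ± 0.067, SE, edgeR adjusted p = 3.12e-07). Complement C3 was at 4960 ± 447 CPM in Z2, 4890 ± 384 in Z5 and 4890 ± 210 in Z9, against 3530 ± 137 in Empty (SD, n = 3 wells each), and rose (0.48 ± 0.061, SE, edgeR adjusted p = 1.96e-05). The fibrinogen chains FGA (0.46, edgeR adjusted p = 1.47e-05) and FGG (0.38, edgeR adjusted p = 2.65e-05) also rose. The 2 genes that fell, named after their values were seen, were LRG1, a leucine-rich glycoprotein (-0.36, edgeR adjusted p = 1.38e-04), and HAMP, which encodes the iron hormone hepcidin (-0.53, edgeR adjusted p = 0.0256). HAMP did not pass without Empty a (-0.45, edgeR adjusted p = 0.143) or Empty b (-0.41, edgeR adjusted p = 0.133). It passed in no single line (edgeR adjusted p = 0.0506 in Z2, 0.0506 in Z5 and 0.2 in Z9). CRP and APCS, which encode the pentraxins C-reactive protein and serum amyloid P, had 0 counts in all 12 libraries and were also named after their values were seen.

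Negative acute-phase proteins, whose plasma level falls in the response, were called in both directions in the mean of the 3 lines. Of 9 tested, 1 rose and 2 fell, against 13.0% higher and 12.6% lower over all genes, with a median log2 change of -0.025. By line 2 fell in Z2, 1 in Z5 and 3 in Z9, where 11.5%, 6.68% and 9.58% of all genes were called lower. In Z5 1 rose, and in Z2 and Z9 0 did. TTR, transthyretin, fell in Z9 (-0.34, edgeR adjusted p = 0.00516) and did not pass in Z2 or Z5 (-0.035 and 0.03, edgeR adjusted p = 0.786 and 0.84). Albumin, ALB, was at 11500 ± 790 CPM in Z2, 11500 ± 635 in Z5 and 12000 ± 496 in Z9, against 17500 ± 797 in Empty (SD, n = 3 wells each), and fell (-0.59 ± 0.052, SE, edgeR adjusted p = 3.12e-07). RBP4, the retinol carrier, fell (-0.21, edgeR adjusted p = 0.00185), but did not pass in Z5 (-0.15, edgeR adjusted p = 0.0813). APOA1, the main protein of high-density lipoprotein, rose (0.13, edgeR adjusted p = 0.0273), and did not pass without any 1 Empty well, Z5 c or Z9 b (edgeR adjusted p from 0.0533 to 0.108). By line it passed only in Z5 (edgeR adjusted p = 0.114 in Z2, 0.0163 in Z5 and 0.232 in Z9).

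**Figure D4:**
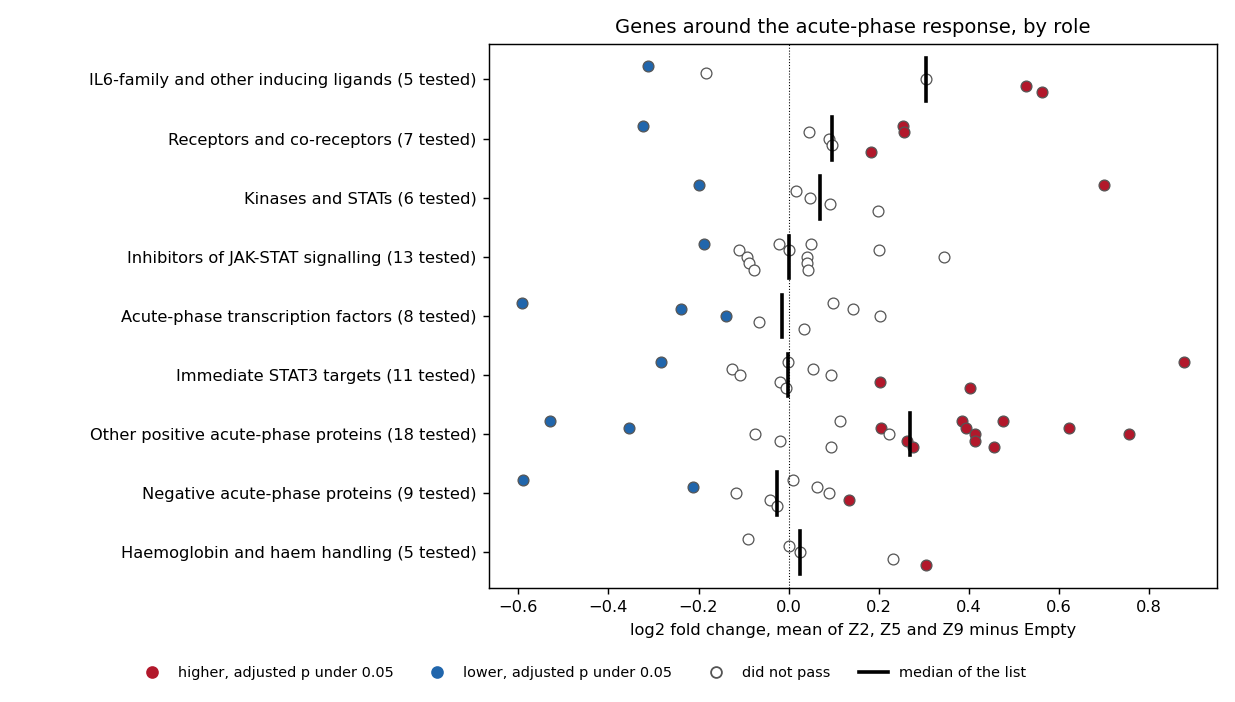
Log2 fold change of the mean of Z2, Z5 and Z9 minus Empty (horizontal axis) for each tested gene of 9 lists by role; red points passed higher, blue points passed lower (edgeR adjusted p under 0.05), white points did not pass, and black bars are list medians. Of the other positive acute-phase proteins 11 of 18 are red, with a median of 0.27.

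In an alternative chosen after seeing the data, the wells of each line were summed and lines taken as the units. Empty was then the sole control unit beside 3 labelled units. That fit holds no spread between control lines, so its calls are not given, and its log2 changes are no check of the calls above. The genes listed here were picked from those whose call depended on taking wells as the units. Its log2 changes were 0.55 for CTF1, -0.31 for LIF, 0.25 for LIFR, 0.18 for OSMR and 0.26 for IL1R1. They were -0.20 for TYK2, -0.19 for PTPN11, -0.24 for FOXA1, 0.20 for IRF9 and -0.28 for BCL3. For HPR, LRG1, RBP4, APOA1 and LRP1 they were 0.395, -0.35, -0.22, 0.13 and 0.30.

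For each gene called in the mean of the 3 lines, the genes with the most similar level over the 12 libraries were listed by Pearson r of log2 CPM, as a description. The 12 points include Empty, and the 3 wells of a line share its source. HP was most like TIMP3 (r = 0.974), HPX like DAZAP1 (0.98) and GNPDA1 (0.97), SOCS3 like SLC35D2 (0.955) and MUC5AC (0.953), STAT3 like LIM2 (0.972) and SLCO2B1 (0.962), and ORM2 like SNORD88B (0.895) and SLC23A1 (0.889).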

How the data were processed

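The authors deposited a table of read counts, as whole numbers, for each gene symbol in each of the 12 libraries. STAR, featureCounts and hg38 are named in the submitters' processing notes. Versions, annotation, strand setting and the handling of multi-mapping reads: not given in the sources used here. Columns were matched to samples by title.

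Testing used edgeR 4.0.16 under R 4.3.3. After filterByExpr by line 15289 genes were left. Library sizes were TMM-scaled, and 1 robust quasi-likelihood model with 4 line means was fitted to the 12 libraries, leaving 8 residual degrees of freedom. The Benjamini-Hochberg method was applied over every tested gene, and an adjusted p under 0.05 was a call. The SE was taken as the log2 change over the root of F. The test was also run on simulated counts drawn independently for each well, which does not cover effects shared by wells or a sole control line. CPM uses TMM-scaled sizes. Genes and lists were chosen with earlier results of these data known. Named genes were the 10 genes, up to 4 called genes per list with the smallest adjusted p, and the 2 genes most similar to each of the 10 that was called; others are named as such in the text. Some genes that this rule names are not reported here. Alternatives were DESeq2 1.42.0 (size factors, Wald test), other filters on low counts, a block for the well letter, fits restricted to the groups compared, and leaving out each library. Counting intervals cover counting error only.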

Additional observations from a re-analysis of the deposited data

Results flagged for a closer look

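Listed genes that differed between the labelled lines by edgeR are given here, as log2 differences. Between Z9 and Z2, lower in Z9 were the receptors OSMR (-0.30) and IL1R1 (-0.28), the transcription factor CEBPD (-0.41), the plasma proteins CP (ceruloplasmin, -0.43), LRG1 (-0.37), MBL2 (mannose-binding lectin, -0.50) and TTR (transthyretin, -0.31), and BLVRA (biliverdin reductase, -0.32). Higher in Z9 than in Z2 were FGB (fibrinogen beta chain, 0.36), F12 (coagulation factor XII, 0.41) and SOCS7 (0.25). Between Z9 and Z5, CEBPD (-0.38), LRG1 (-0.39), TTR (-0.37) and HMOX1 (-0.44) were lower in Z9 and FGB (0.32) was higher. The edgeR adjusted p of these ran from 0.00285 (FGB, Z9 minus Z2) to 0.0479 (F12). Each line is 1 line with 3 wells, and the cause of these differences was not tested. The listed genes were not rechecked under the alternatives in comparisons between labelled lines. Over all genes, calls under the alternatives ran from 32 to 2399 between Z9 and Z2 and from 37 to 664 between Z9 and Z5.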

How the results depend on the processing

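HP, HPX and SOCS3 kept their direction in the mean of the 3 lines under all 19 alternatives of each, with log2 changes of 0.60 to 0.71, -0.94 to -0.78 and 0.65 to 0.85. They also kept their call in each alternative that did not sum the wells of a line. Of the genes called, the count in Z5 was 3 and became 5 in a fit of only Z5 and Empty, 5 by DESeq2, and 3 to 6 with 1 library left out. In the mean of the 3 lines it was 5 and became 3 to 6 with 1 library left out. Between Z9 and Z2 it was 0 and became 2 by DESeq2 and 0 to 1 with 1 library left out. The replicate letters a to c were not taken to pair the wells, since 5 of 18 same-letter pairs had a correlation of deviations over 0.1 (r from -0.101 to 0.173, median 0.065, against -0.045 for other pairs) and 6 of 12 wells correlated best with a well of their own letter; the pairs of wells a were all positive, from 0.039 to 0.173. With the replicate block 1 of the 10 genes, HPX, was called between Z9 and Z2 (0.49, edgeR adjusted p = 0.00209). The count over all genes there was 1512 against 790, and between Z9 and Z5 it was 488 against 232. The block also called IL6R in the mean of the 3 lines (-0.12, edgeR adjusted p = 0.046), which made 6 genes, STAT3 in Z5 (0.14, edgeR adjusted p = 0.0449), and 2 inhibitors of JAK-STAT signalling as higher.

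Directions that reversed with 1 library left out were all of differences that did not pass. They spanned log2 values of -0.063 to 0.042 for ORM1 in Z9 minus Empty, -0.007 to 0.038 for STAT3, -0.27 to 0.002 for SOCS3 and -0.15 to 0.027 for ORM1 in Z5 minus Z2, -0.18 to 0.12 for SAA4 in Z9 minus Z2, and -0.12 to 0.031 for HP in Z9 minus Z5. Over all genes, counts of calls under the alternatives with wells kept apart ran from 2130 to 4411 in Z2 and 1087 to 3317 in Z5. They ran from 1720 to 4048 in Z9 and 2107 to 4787 in the mean of the 3 lines. Between labelled lines they ran from 1 to 153 for Z5 and Z2, 32 to 2399 for Z9 and Z2, and 37 to 664 for Z9 and Z5. With 1 library left out, the other positive acute-phase proteins called higher numbered 10 to 11, against 11. Receptors called higher then numbered 2 to 3, against 3, and transcription factors called lower 2 to 3, against 3. The cause of these shifts was not tested. SAA1 and SAA2, at 0 to 3 counts a well, were too low to test.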
